A study of Drosophila melanogaster with 54 samples.

Results

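The genes described are those that encode subunits of the proteasome in Drosophila melanogaster, chosen as every gene whose FlyBase symbol begins Prosalpha, Prosbeta, Rpn or Rpt followed by a digit. There are 48 of them among 17558 genes in the tables. The 26S proteasome degrades proteins that carry ubiquitin chains. Its barrel-shaped core particle is built of outer rings of alpha subunits, which gate the channel, and inner rings of beta subunits, which hold the cutting sites. A regulatory cap sits on the core: Rpt subunits are ATPases that unfold the substrate, and Rpn subunits form the scaffold, bind ubiquitin and remove it. In flies the genes for the standard subunits are active in nearly every cell, eggs are loaded with their RNA, and several subunits have a duplicate gene used mainly in the male germline.

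Of the 48 genes, 32 encode the standard subunits, here called constitutive, 14 of the core and 18 of the cap. The other 16 are paralogs whose symbol carries a T or R after the number. The X chromosome holds 4 constitutive genes: Prosalpha4 (chromosome X, 16276270 to 16277587, plus strand, dm6), a core ring subunit, and the cap ATPase genes Rpt3 (chromosome X, 11125101 to 11126785, plus strand), Rpt4 (chromosome X, 6289470 to 6291245, minus strand) and Rpt6 (chromosome X, 21316052 to 21317663, plus strand). The remaining 28 constitutive genes are autosomal. By the annotation, 16 of the 32 constitutive genes overlap another protein-coding gene, Rpt4 with wuho and Rpt6 with CG1801 on the opposite strand, and since strand-aware counting is not recorded, the values of such genes may hold reads of their neighbours. Prosalpha1 and its near-identical neighbour Prosalpha1R were at or below 4.97 and 2.23 counts-per-million (CPM) in every library, so the values of both copies are uncertain, and both are left out of every averaged level. Levels over constitutive genes therefore rest on 13 core and 18 cap genes.

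PolyA RNA was sequenced from 54 libraries in 14 groups. mof encodes the histone acetyltransferase that acetylates H4 lysine 16, and works in the MSL complex on the male X and in other complexes in both sexes. Embryos were progeny of mothers carrying the maternal driver mat-a-tubGal4 with either an RNA interference transgene against mof or a control transgene, crossed to siblings, so the driver is present in mof and control groups alike. The blastoderm groups at nuclear cycle 14 (St5) held 4 control and 4 mof males and 2 control and 2 mof females. The gastrula groups (St7) held 7 control and 6 mof males and 6 control and 4 mof females. At both stages each library is a single embryo, whose sex the submitters called after sequencing from its counts of msl-2, Sxl, tra and tra2. The late groups (St15, 14 to 16 h) held 3 control and 3 mof males and 3 control and 4 mof females, each a pool of 25 embryos in a Sxl-GFP background sorted by GFP, which marks females. S2 cells of the Dmel-2 line, a cultured line of male embryonic origin with macrophage-like properties, gave 3 libraries after 3 days at 25 °C with 10 ug of double-stranded RNA (dsRNA) against mof and 3 with dsRNA against GFP. The mof and control transgenes come from different stocks, so any difference of background cannot be told apart from mof depletion. The labels do not give the S2 libraries as separate cultures, so their p-values measure only the spread between these samples. In bulk RNA, fewer cells of a type and less RNA per cell cannot be told apart.

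Total counts were 28278799 to 41513416 per library at St5, 5504650 to 10024836 at St7, 19018190 to 38076982 at St15 and 20487339 to 38772186 for the S2 libraries. The targeted gene mof was at 268 to 414 CPM in control males and 1.46 to 4.51 CPM in mof males at St5, and at 531 to 677 CPM in control females and 0.912 to 1.25 CPM in mof females. At St7 it was at 52.8 to 202 CPM in control males and 2.39 to 25.1 CPM in mof males, and at 27.7 to 48.4 CPM in control females and 7.02 to 18.01 CPM in mof females. At St15 it was at 18.5 to 38.7 CPM in control males and 2.17 to 2.997 CPM in mof males, and at 10.97 to 11.2 CPM in control females and 2.57 to 3.23 CPM in mof females. In all 6 of these comparisons mof fell by edgeR's quasi-likelihood test at a Benjamini-Hochberg adjusted p under 0.05, with adjusted p from 1.13e-06 to 0.0144. In S2 cells it was 65.9 to 71.8 CPM after GFP dsRNA and 50.1 to 72.7 CPM after mof dsRNA and did not pass (adjusted p = 0.491, edgeR), so these counts do not show a knockdown there. The genotype text of the St5 control females names the mof transgene and that of the St15 mof embryos the control, whereas their titles and mof counts do not, so the groups here are those of the titles. The libraries labelled St5 mof males 1 and 2 held 0 counts on 9 Y-linked genes, against 15 to 86 in the other St5 males, and had 469 and 400.0 CPM of Sxl, the female switch gene, against 31.5 to 84.1 CPM. The libraries labelled St5 females held 0 and 2 Y-linked counts in controls and 0 and 4 in mof embryos. Their Sxl was at 32.5 and 34.5 CPM in controls and 22.4 and 8.77 CPM in mof embryos. None of these lay above the range of the other St5 males, so Sxl does not bear out their female label. The library labelled St15 mof female 3 held 39 Y-linked counts, against 0 to 2 in the other St15 females. The St5 females of both groups carried 1199 to 1580.5 CPM of a list of maternal egg RNAs, against 81.2 to 285 CPM in the St5 males, so sex and age of the embryo cannot be told apart at St5.

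Proteasome RNA was most abundant in the early embryo and lowest in the late one. The 48 genes took 1.145 ± 0.1003% of all counts in St5 control males (SD, n = 4), 0.790 ± 0.0719% in St7 control males (SD, n = 7) and 0.201 ± 0.00363% in St15 control males (SD, n = 3). In control females the share was 1.01 ± 0.0997% (n = 2), 0.806 ± 0.0622% (n = 6) and 0.196 ± 0.00578% (n = 3), and in S2 cells with GFP dsRNA it was 0.343 ± 0.0132% (n = 3). The shares of no control library overlapped between St7 and St15. Each stage is a separate table and the deposited counts carry no scaling between tables, so stage and table cannot be told apart and levels across them are given without a test.

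The core and the cap did not follow the same course from St5 to St7. In CPM per kilobase of exon (RPKM), the mean level over the 13 core genes was 678 ± 94.9 in St5 control males, 264 ± 46.2 in St7 control males and 40.3 ± 1.80 in St15 control males (SD over 4, 7 and 3 libraries). The mean over the 18 cap genes was 101 ± 15.9, 154 ± 7.41 and 49.7 ± 1.57 RPKM in the same groups. In males from St5 to St7, 0 of 13 core genes had every control library higher and 11 had every control library lower, whereas 14 of 18 cap genes had every library higher and 1 had every library lower. Among all genes with at least 1 CPM in either group, 51.9% had every library higher and 15.2% every library lower. The median log2 ratio of mean CPM, St7 to St5, was -1.10 over the core genes and 1.28 over the cap genes, beside 0.94 over all genes. Within the core, the alpha ring had a median of -1.997 and the beta ring -0.82. The 13 core genes have exon lengths of 815 to 1215 bases. Of the cap genes, Rpn12 and Rpn11 have 995 and 1208 bases, and the others 1393 to 3412. Gene length and membership of core or cap thus go largely together. A length effect on the counts cannot be told apart from a core and cap difference, here or below, and was not tested.

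Prosalpha7, an outer ring subunit, was 919, 871, 1145 and 667 CPM in the 4 St5 control males and had a lowest of 101, a median of 133 and a highest of 149 CPM in the 7 St7 control males. Prosbeta1, which carries the caspase-like cutting site, was 617, 611, 698 and 489.7 CPM at St5 and 77.8 to 154 CPM at St7. For both core genes every St5 male lay above every St7 male. Rpn1, the base scaffold that docks ubiquitin shuttles, was 61.6, 60.9, 16.5 and 78.1 CPM in the St5 control males and 274 to 342 CPM in those of St7. Rpn11, the deubiquitinase of the lid, was 47.5, 48.7, 13.9 and 43.2 CPM at St5 and 187 to 235 CPM at St7. For both cap genes every St5 male lay below every St7 male, and St5 control male 3 was the lowest. The cap gene that went the other way was Rpn12, a lid subunit, with 493 ± 69.3 CPM at St5 and 294 ± 44.5 CPM at St7.

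**Figure D1:**
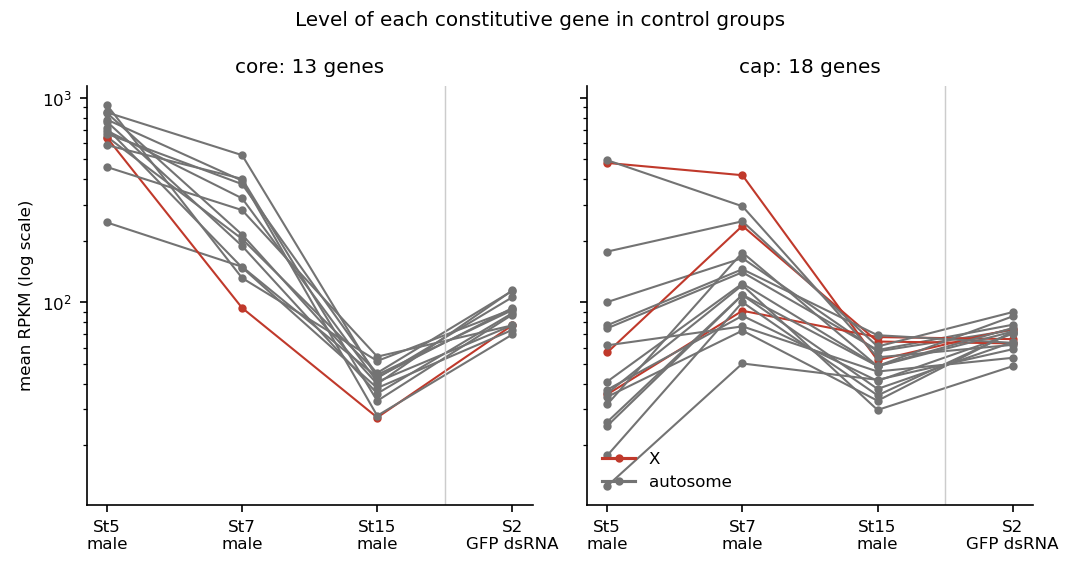
Mean RPKM (log scale) of each of 13 core and 18 cap genes in control males of St5, St7 and St15 and in S2 cells with GFP dsRNA, with X genes in red and autosomal genes in grey. Each line is 1 gene; most core lines are lower at each later embryo stage, most cap lines are higher at St7 than at St5 and lower at St15, and the lines lie closer together at St15 and in S2 cells.

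In females the same counts from St5 to St7 were 0 higher and 9 lower of 13 core genes and 8 higher and 3 lower of 18 cap genes, against 54.3% and 31.6% of all genes. With 2 control females at St5, libraries separate more easily than with 4 males. The medians were -1.13 for the core and 0.18 for the cap, beside 0.41 over all genes. From St7 to St15, 30 of 31 genes had every control library lower in males and 30 of 31 in females, against 41.9% and 43.8% of all genes. The exception in both sexes was Rpn8, the lid partner of Rpn11, with 77.01 ± 10.95 CPM in St7 and 64.1 ± 1.24 CPM in St15 control males.

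The core-to-cap ratio, taken in each library as the geometric mean RPKM of the core genes over that of the cap genes, was 10.8, 10.05, 24.6 and 8.35 in the St5 control males and 5.16 and 4.27 in the St5 control females. It was 1.22 to 2.19 in St7 control males and 1.52 to 2.27 in St7 control females. At St15 all 13 libraries of the 4 groups lay between 0.766 and 0.911, and in S2 cells the 6 libraries lay between 1.28 and 1.42. St5 control male 3 stood apart with the highest ratio, and without it every St5 library still lay above every St7 library. The spread among members also differed by stage. The SD of log2 RPKM over the cap genes averaged 1.501 in St5 control males, 0.784 at St7, 0.362 at St15 and 0.222 for S2 cells with GFP dsRNA, so the cap genes lay closer together in each of these than in the one before. Over the core genes it averaged 0.499, 0.756, 0.312 and 0.236, so the core genes lay farther apart at St7 than at St5 and closer together at St15.

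**Figure D2:**
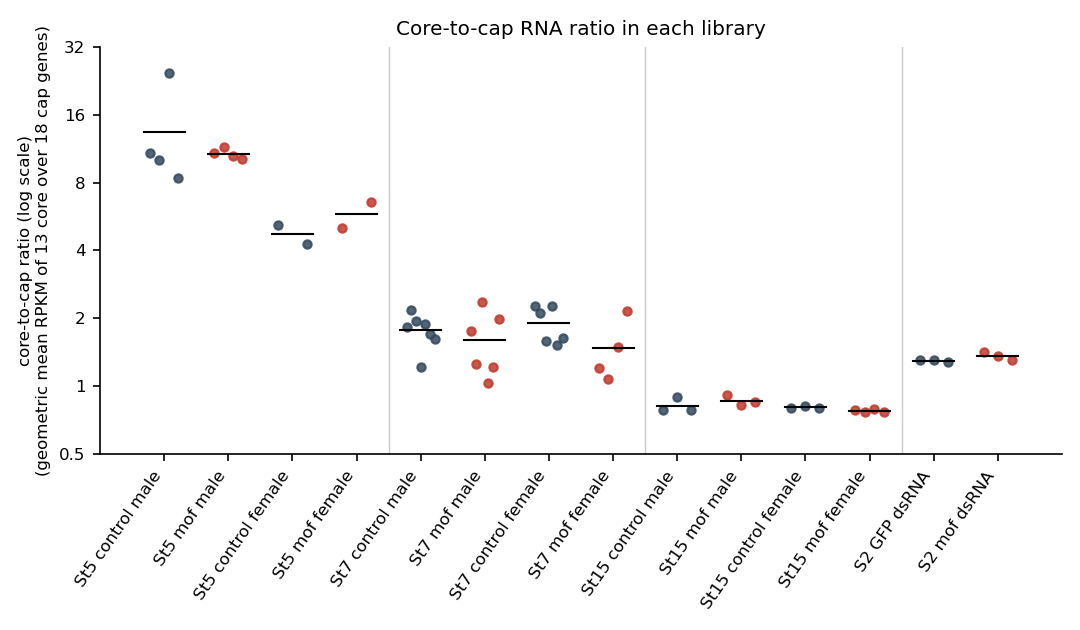
Core-to-cap ratio (geometric mean RPKM of 13 core over 18 cap genes, log scale) in each of 54 libraries by group; each point is 1 library. The ratio is above 4 in every St5 library, between 1.04 and 2.36 at St7, below 1 in every St15 library and between 1.28 and 1.42 in S2 cells.

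In S2 cells with GFP dsRNA most proteasome genes stood higher in CPM than in St15 control males. Of 31 constitutive genes, 28 had every S2 library higher and 1 every library lower, against 49.3% and 43.9% of all genes. The median log2 ratio was 1.31 over the core and 0.54 over the cap. The lower gene was Rpn10, a ubiquitin receptor, at 90.2 ± 2.15 CPM in S2 cells and 98.3 ± 4.32 CPM in the embryos. The X genes Rpt3 and Rpt6 overlapped, with 103 ± 2.10 and 88.5 ± 1.75 CPM in S2 cells and 105 ± 7.74 and 90.4 ± 3.14 CPM in the embryos.

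At St5, control males and control females differed in proteasome RNA, with core genes higher and most cap genes lower in males. Of 36 genes tested, 14 were higher and 11 lower in males by edgeR's quasi-likelihood test at a Benjamini-Hochberg adjusted p under 0.05 over all genes, where 34.5% of all genes passed as higher and 27.5% as lower. The directions split by particle: 10 of 14 core genes were higher and 0 lower, 2 of 18 cap genes were higher and 11 lower, and both paralogs that passed were higher. For the core, the count of 0 lower compares with 0 lower at an unadjusted p under 0.05 and 0 by DESeq2. Rpn5, a lid scaffold subunit, was 88.4, 86.2, 37.7 and 99.04 CPM in the males and 287 and 354 CPM in the females, a log2 difference of -1.89 ± 0.26 (SE, adjusted p = 7.26e-05, edgeR). Rpt3 was 58.5, 68.2, 23.3 and 70.6 CPM in the males and 162 and 223 CPM in the females, a log2 difference of -1.66 ± 0.31 (adjusted p = 0.000670, edgeR). For both genes every male lay below both females.

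The other cap genes with the largest differences below 0 that passed were Rpn8 (-1.71 on the log2 scale), the ATPase gene Rpt6 (-1.60), the lid gene Rpn3 (-1.23), the base scaffold genes Rpn1 (-1.13) and Rpn2 (-1.02), and the ATPase gene Rpt1 (-1.13). The cap genes higher in males, which the naming rule did not pick, were Rpt4 (0.69) and Rpn12 (0.55). Among core genes Prosbeta1 was 350.4 and 389.7 CPM in the females, a log2 difference of 0.90 ± 0.21 (adjusted p = 0.00266, edgeR), and all 4 males lay above them. The structural beta subunits Prosbeta3 (0.88), Prosbeta7 (0.86) and Prosbeta6 (0.81) and the alpha ring subunits Prosalpha6 (0.86) and Prosalpha5 (0.86) were also higher in males. Of the 4 X genes, 2 were higher and 2 lower in males. Maternal and zygotic RNA moved with this contrast. A list of early zygotic genes summed to 3774 to 4586 CPM in control males and 391 to 424 CPM in control females, and the maternal egg list to 81.2 to 118 and 1199 to 1469 CPM. Their part in the result was not tested. Leaving out control female 2 left 9 genes higher and 6 lower, and leaving out control male 3, which stood apart, left 14 higher and 10 lower.

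The partner list holds 24 genes for assembly chaperones, activators, shuttle factors, deubiquitinases and ubiquitin itself, of which 20 were found at St5 and 19 in the other tables. In the St5 controls 4 were higher and 12 lower in males, where 34.5% of all genes passed as higher and 27.5% as lower. The largest differences that passed were in cnc (-3.26), the fly relative of the NRF factors that drive proteasome genes, PSMG1 (3.00), a core assembly chaperone, and the polyubiquitin gene Ubi-p63E (-2.46).

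In late male embryos most proteasome genes changed with mof depletion: the X genes fell and most autosomal genes rose. Of 33 genes tested, 21 rose and 4 fell by edgeR's quasi-likelihood test at a Benjamini-Hochberg adjusted p under 0.05, where 16% of all genes rose and 18.2% fell. All 4 X genes fell, as 63.7% of all X genes did, with a median log2 fold change of -0.46 beside -0.52 over all X genes. Of the 27 autosomal constitutive genes tested, 21 rose and 0 fell, where 18.8% of all autosomal genes rose, and the medians were 0.25 and 0.07. No autosomal member fell at an unadjusted p under 0.05 or by DESeq2 either (0 in each). All 27 fold changes were above 0, from 0.06 to 0.49.

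Among the X genes, Rpt3 was 114, 99.5 and 102 CPM in control males and 59.6, 61.1 and 64.4 CPM in mof males. It fell by 0.77 ± 0.07 on the log2 scale (SE, adjusted p = 5.07e-06, edgeR) and no library overlapped. Rpt6 was 92.5, 86.8 and 91.8 CPM in control males and 62.2, 61.6 and 64.2 CPM in mof males, a log2 fold change of -0.53 ± 0.06 (adjusted p = 3.04e-05). Prosalpha4 was 33.5, 33.3 and 29.7 CPM and 26.3, 23.2 and 23.7 CPM, a log2 fold change of -0.39 ± 0.08 (adjusted p = 0.00156). In both of these genes too, every mof male lay below every control male. Rpt4 was 76.03, 84.8 and 68.5 CPM and 66.7, 55.4 and 57.3 CPM, a log2 fold change of -0.35 ± 0.08 (adjusted p = 0.00419). The Rpt4 groups did not overlap either.

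Among autosomal genes the largest rise was in Rpn2, a base scaffold, with 119, 107 and 113 CPM in control males and 156, 161 and 157 CPM in mof males, a log2 fold change of 0.49 ± 0.06 (adjusted p = 2.49e-05, edgeR). Prosbeta1 was 32.9, 32.9 and 31.7 CPM and 44.9, 45.6 and 44.1 CPM, a log2 fold change of 0.47 ± 0.06 (adjusted p = 6.18e-05). Prosbeta5, which carries the chymotrypsin-like cutting site, was 37.3, 39.4 and 36.1 CPM and 48.2, 50.2 and 53.6 CPM, a log2 fold change of 0.43 ± 0.06 (adjusted p = 0.000134). In these 3 genes every mof male lay above every control male. The next were Rpn1 (0.41 on the log2 scale), the beta ring subunit Prosbeta4 (0.40), Rpn3 (0.38), the alpha ring subunit Prosalpha3 (0.35) and the ATPase gene Rpt5 (0.34). Both particles took part, with 8 of 13 core genes risen and 1 fallen and 13 of 18 cap genes risen and 3 fallen. The autosomal genes that did not pass were Rpn11 (0.06), Rpn9 (0.17), Prosbeta2 (0.16), Prosbeta3 (0.15), Prosbeta6 (0.10) and Prosalpha5 (0.24). Over the alternatives tried, all 4 X genes fell each time and 15 to 22 autosomal genes rose.

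**Figure D3:**
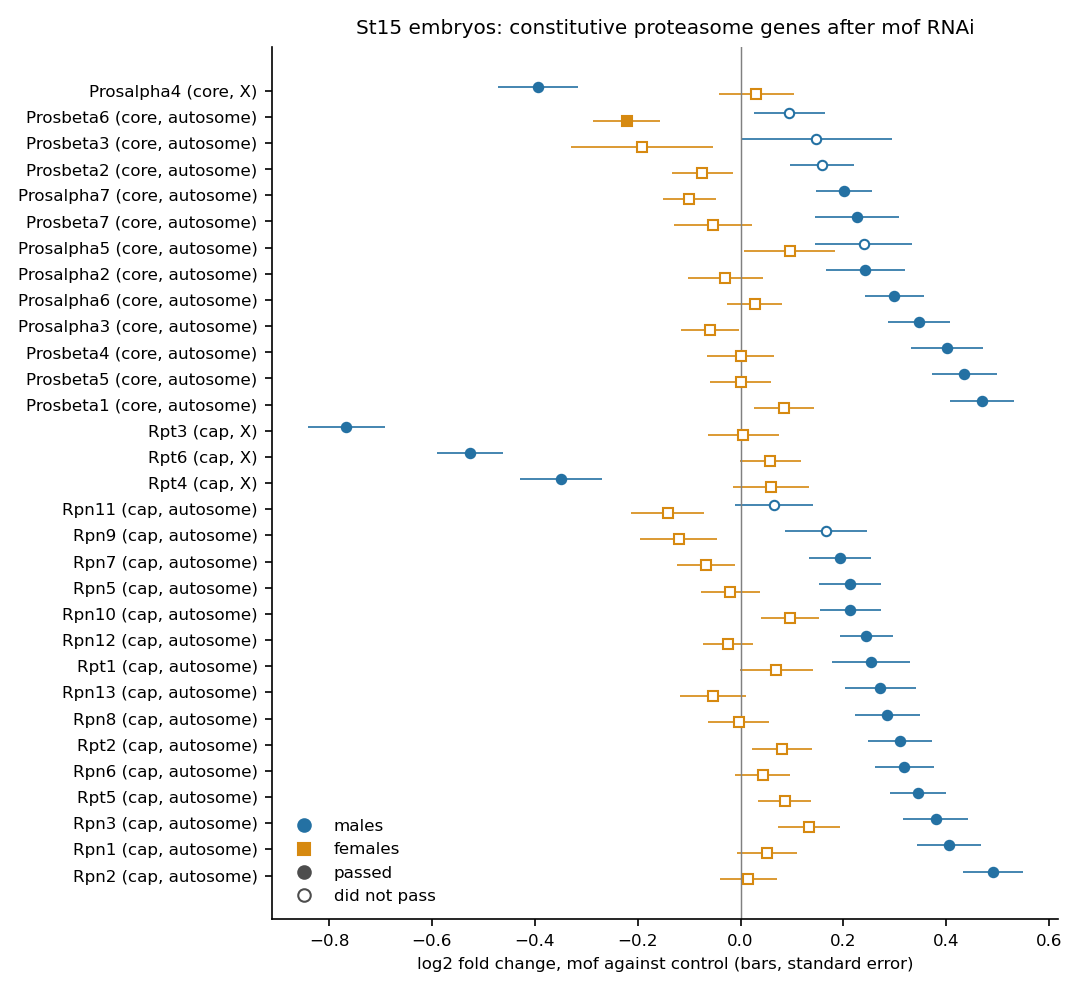
Log2 fold change of mof against control (x axis, bars are standard errors) for 31 constitutive genes at St15, males as blue circles and females as orange squares, filled where the adjusted p was under 0.05. The 4 X genes lie below 0 in males and all 27 autosomal genes above 0, while in females 1 gene, Prosbeta6, is filled.

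Within a library, the mean log2 RPKM of the 4 X genes less that of the 27 autosomal genes was 0.23, 0.21 and 0.14 in St15 control males and -0.54, -0.63 and -0.60 in mof males. It was 0.08 to 0.14 in control females and 0.14 to 0.20 in mof females, so among these 4 groups the mof males lay below 0 and the others above. This balance carries no test of its own, since it is built from the genes whose falls and rises are given above. The ring of 6 ATPases, of which 3 are encoded on the X, held both directions: Rpt3, Rpt4 and Rpt6 fell, and Rpt1 (0.25), Rpt2 (0.31) and Rpt5 (0.34) rose. Mean RPKM of the 6 ATPase genes was 56.9 ± 1.55 in control and 53.1 ± 0.425 in mof males, while that of the 8 lid genes was 46.3 ± 1.52 and 54.5 ± 1.20. The 48 genes together took 0.206, 0.199 and 0.199% of counts in control males and 0.228, 0.229 and 0.230% in mof males.

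**Figure D4:**
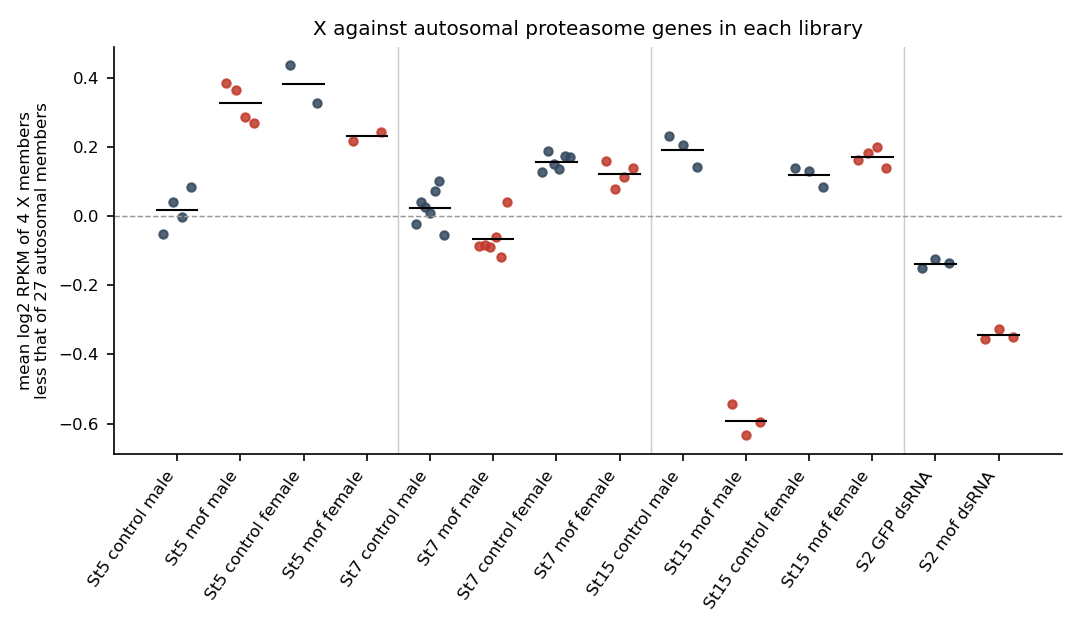
Mean log2 RPKM of the 4 X genes less that of the 27 autosomal constitutive genes (y axis) in each of 54 libraries by group; each point is 1 library and the dashed line marks 0. The 3 St15 mof males lie between -0.63 and -0.54 and the S2 libraries with mof dsRNA between -0.36 and -0.33, each below the control libraries of its table.

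The partner list in St15 males had 7 genes risen and 3 fallen, where 16% of all genes rose and 18.2% fell. Of its 4 X genes 0 rose and 3 fell, where 63.7% of all X genes fell. Of its 15 autosomal genes 7 rose and 0 fell, where 18.8% of all autosomal genes rose. For the X genes 0 were higher at an unadjusted p under 0.05 and 0 by DESeq2, and for the autosomal genes 2 were lower at an unadjusted p under 0.05 and 1 by DESeq2. The largest changes that passed were in Ubi-p63E (0.87) and in the shuttle factor genes Ubqn (-0.67) and rngo (-0.59), both on the X. Hemocyte markers moved with mof depletion in these males. A hemocyte list summed to 3028 to 3037 CPM in control males and 3294 to 4354 CPM in mof males, with no overlap. A muscle, neuron and cuticle list overlapped, at 12921 to 13221 and 11464 to 14994 CPM. Their part in the result was not tested.

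In late female embryos 1 proteasome gene passed after mof depletion. Of 33 genes tested, 0 rose and 1 fell by edgeR's quasi-likelihood test at a Benjamini-Hochberg adjusted p under 0.05, where 12.7% of all genes rose and 13.3% fell. At an unadjusted p under 0.05, 1 gene was higher in mof females. DESeq2 called 0 as higher and 1 as lower. The gene that fell was Prosbeta6, a structural beta subunit, at 38.5, 43.2 and 36.9 CPM in control females and 32.5, 34.3, 32.5 and 30.8 CPM in mof females, a log2 fold change of -0.22 ± 0.06 (SE, adjusted p = 0.0246, edgeR). Its groups did not overlap, but the call was lost without control female 3 or without mof female 4. The 4 X genes had log2 fold changes of 0.01 (Rpt3), 0.06 (Rpt4), 0.06 (Rpt6) and 0.03 (Prosalpha4), and did not pass. Of the partners 2 rose and 1 fell: Ubi-p63E (0.71), the X-linked Ubi-p5E (0.64) and ntc (-1.92), an F-box protein.

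The control groups of the late stage did not show a sex difference that passed. Of 33 genes, 0 were higher and 0 lower in males by edgeR, with 1.3% of all genes passing, 2 of the 33 at an unadjusted p under 0.05 and 0 by DESeq2. The smallest p-values belonged to the X genes Prosalpha4 and Rpt3. Prosalpha4 was 28.6, 29.4 and 26.2 CPM in control females, a log2 difference male against female of 0.19 ± 0.08 (adjusted p = 0.383), and Rpt3 was 95.5, 99.9 and 85.2 CPM, a difference of 0.16 ± 0.07 (adjusted p = 0.462). Of the partners 0 were higher and 0 lower, with 3 at an unadjusted p under 0.05 and 0 by DESeq2.

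The effect of mof depletion itself differed between the sexes at St15. The interaction, which is the mof effect in males less that in females, passed for 19 of 33 genes by edgeR with Benjamini-Hochberg adjustment, 15 with a value above 0 and 4 below, where 16.7% of all genes passed. All 4 X genes passed below 0, as did 50% of all X genes, and 15 of 27 autosomal constitutive genes passed above 0, as did 7.71% of all autosomal genes. The other 12 autosomal constitutive genes did not pass, and all 27 values were above 0, from 0.12 to 0.47. Rpt3 had an interaction of -0.77 ± 0.10 (adjusted p = 0.000281) and Rpt6 of -0.58 ± 0.09 (adjusted p = 0.000623). Prosalpha4 had -0.42 and Rpt4 -0.41. Above 0 the largest that passed were Rpn2 at 0.47 ± 0.08 (adjusted p = 0.00137), Prosbeta5 at 0.43, Prosalpha3 at 0.41, Prosbeta4 at 0.40, Prosbeta1 at 0.39, Rpn1 at 0.35, Rpn13, a ubiquitin receptor, at 0.33 and Prosbeta6 at 0.32. Of 19 partners 4 passed above 0 and 4 below, and the 4 that passed below 0 were the X genes, among them Ubqn (-0.71) and Ubi-p5E (-0.59), with PSMG1 (0.55) among those that passed above 0. Markers of other tissues moved with mof depletion in this contrast, the hemocyte list in the males, as given above, and 2 lists in the females. The muscle, neuron and cuticle list summed to 12634 to 14578 CPM in control and 15447 to 16183 CPM in mof females. The hemocyte list summed to 3050.4 to 3690.1 CPM in control and 4066 to 4469 CPM in mof females, with no overlap in either list. Their part in the result was not tested. The count that passed was 12 without control male 4, and 2 of the 4 X genes passed without control male 1 or without mof male 2. Without mof female 3, whose Y-linked counts go against its label, it was 15, with 11 above 0 and 4 below.

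In S2 cells treated with mof dsRNA core genes and some cap genes rose, all of them autosomal. Of 34 genes tested, 16 rose and 2 fell by edgeR's quasi-likelihood test at a Benjamini-Hochberg adjusted p under 0.05, where 10.2% of all genes rose and 13.2% fell. All 27 autosomal constitutive genes had fold changes above 0, from 0.06 to 0.24 on the log2 scale, and 16 rose, where 11.7% of all autosomal genes rose. By particle 9 of 13 core genes rose and 0 fell, with 0 lower at an unadjusted p under 0.05 and 0 by DESeq2, and 7 of 18 cap genes rose and 1 fell. Prosalpha5, an alpha ring subunit, was 85.6, 82.9 and 82.8 CPM with GFP dsRNA and 99.6, 99.8 and 96.1 CPM with mof dsRNA, a log2 fold change of 0.24 ± 0.05 (SE, adjusted p = 0.00436, edgeR). Prosbeta5 was 103, 93.3 and 101 CPM and 121, 116 and 111 CPM, a log2 fold change of 0.23 ± 0.06 (adjusted p = 0.0119). In both genes every library with mof dsRNA lay above every library with GFP dsRNA. The next were Prosalpha3 (0.23), Rpn12 (0.22), Prosbeta1 (0.22), Prosbeta4 (0.20), Rpn3 (0.20) and Rpt1 (0.20).

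Of the 4 X genes in S2 cells 1 fell. Rpt3 was 100.5, 103 and 105 CPM with GFP dsRNA and 85.8, 92.9 and 88.5 CPM with mof dsRNA, a log2 fold change of -0.20 ± 0.05 (adjusted p = 0.00881, edgeR), and its groups did not overlap. Rpt4 (-0.05), Prosalpha4 (0.02) and Rpt6 (0.03) did not pass. Among all X genes 37% fell, with a median of -0.19, beside -0.01 over these 4. The mean log2 RPKM of X less autosomal genes was -0.15 to -0.13 with GFP dsRNA and -0.36 to -0.33 with mof dsRNA. Of the partners 4 rose and 2 fell, where 10.2% of all genes rose and 13.2% fell. The largest partner changes that passed were in rngo (-0.28), the small lid subunit Sem1 (0.24) and PSMG1 (0.20). The count of 18 was lower when a library was left out: 7 without GFP replicate 3 or mof replicate 2 and 9 without mof replicate 1. The hemocyte list summed to 3636 to 5169 CPM with GFP dsRNA and 5450.4 to 5663 CPM with mof dsRNA, and its part in the result was not tested.

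At gastrulation 1 constitutive gene passed after mof depletion, in males, and the other calls were in paralogs. In St7 males 1 of 34 genes tested rose and 3 fell by edgeR with Benjamini-Hochberg adjustment, where 9.93% of all genes rose and 15.3% fell. The gene that rose was Rpt5, with a lowest of 107, a median of 144 and a highest of 164 CPM in control males and a lowest of 132, a median of 155 and a highest of 179 CPM in mof males, a log2 fold change of 0.26 ± 0.10 (adjusted p = 0.0488). Its groups overlapped and the call was lost with only the groups compared, and without control male 2, 3 or 5 or mof male 1, 2 or 5. In St7 females 0 rose and 3 fell, where 11% of all genes rose and 16.8% fell, with 2 genes higher at an unadjusted p under 0.05 and 2 by DESeq2. With RLE scaling, TMM on autosomal genes or DESeq2, 2 rose and 3 fell in females, and the 2 were Rpt5 (0.29 with RLE scaling) and Rpn3 (0.30), named here after their values were seen. Without mof female 4 the split was 3 risen and 5 fallen. All 13 core genes had log2 fold changes below 0 in females, with a median of -0.38, and 0 of them passed by edgeR, with 4 at an unadjusted p under 0.05 and 0 by DESeq2. Early zygotic genes summed to 601 to 744 CPM in St7 control females and 769 to 881 CPM in mof females, and their part was not tested.

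The St7 control sexes differed in 1 gene. Rpt3 had a lowest of 136, a median of 139 and a highest of 155 CPM in control males and a lowest of 159, a median of 176 and a highest of 198 CPM in control females, a log2 difference of -0.39 ± 0.08 (adjusted p = 0.00199, edgeR), and no library overlapped. Among all genes 6.22% passed, and 30.8% of X genes passed as lower in males. The other X genes were at -0.09 (Rpt4), -0.19 (Rpt6) and -0.13 (Prosalpha4) and did not pass. In the controls the X less autosome balance was -0.05 to 0.10 in males and 0.13 to 0.19 in females. The mof effect differed between the St7 sexes for 0 of 34 genes by edgeR, with 0 at an unadjusted p under 0.05 and 0 by DESeq2, and for 0% of all genes. The smallest p-values were for Prosalpha7 (0.26, adjusted p = 0.9997) and Prosalpha6 (0.38, adjusted p = 0.9997).

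Of the partners at St7, 4 rose and 2 fell in males and 5 rose and 1 fell in females. Among all genes 9.93% rose and 15.3% fell in males, and 11% rose and 16.8% fell in females. The largest changes that passed in males were in ntc (-1.04), the peptide N-glycanase gene Pngl (-0.47) and Sem1 (0.47). In females they were in Pngl (-0.71), Sem1 (0.48) and Npl4 (0.39), a cofactor of the segregase TER94. Between the control sexes 1 partner passed, rngo, with a log2 difference male against female of -0.50, where 6.22% of all genes passed.

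In blastoderm males mof depletion went with higher levels of a few cap genes. Of 36 genes tested, 5 rose and 2 fell by edgeR with Benjamini-Hochberg adjustment, where 6.51% of all genes rose and 7.33% fell. Rpt6 was 89.3, 96.01, 38.6 and 95.8 CPM in control males and 184, 128, 127 and 132 CPM in mof males, a log2 fold change of 1.10 ± 0.22 (SE, adjusted p = 0.01004). Rpt3 was 58.5, 68.2, 23.3 and 70.6 CPM and 106, 90.7, 76.2 and 63.5 CPM, a log2 fold change of 0.88 ± 0.26 (adjusted p = 0.0445). The Rpt6 groups did not overlap, whereas the Rpt3 groups did. Rpt1 (0.73, adjusted p = 0.0120), Prosalpha3 (0.63, adjusted p = 0.0396) and Rpn12 (0.45, adjusted p = 0.0375) also rose. The paralogs Prosbeta2R2 (-2.89) and Rpt3R (-2.24) fell. Without control male 3, 9 genes rose and 3 fell, and without control male 2, control male 4, mof male 1, mof male 2 or mof male 3 the total was 3. The Y-linked and Sxl counts of the libraries labelled mof males 1 and 2 go against their label. Without these libraries 0 genes rose and 1, Rpt3R, fell by edgeR. Rpt6 was then at 0.97 (adjusted p = 0.0532, edgeR) and Rpt1 at 0.61 (adjusted p = 0.0725, edgeR). In the same fit Rpt3 was at 0.62, Prosalpha3 at 0.36 and Rpn12 at 0.31, and none of the 5 passed. Of the partners 3 rose and 0 fell: rngo (0.85), the shuttle factor Rad23 (0.73) and the deubiquitinase Usp14 (0.72). Among partners 1 was lower at an unadjusted p under 0.05 and 1 by DESeq2. Maternal RNA moved with this contrast too. The maternal egg list summed to 81.2 to 118 CPM in control males and 153 to 285 CPM in mof males, with no overlap. The early zygotic list overlapped, at 3774 to 4586 and 3846 to 5805 CPM. Their part in the result was not tested.

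In blastoderm females 0 of 36 genes rose and 0 fell by edgeR, where 2.24% of all genes rose and 1.8% fell, with 1 at an unadjusted p under 0.05 and 0 by DESeq2. The smallest p-values were those of Prosbeta5, at 449 and 546 CPM in the 2 control and 623 and 740.2 CPM in the 2 mof females (0.50 ± 0.20 on the log2 scale, adjusted p = 0.189), and Rpn12 (0.34, adjusted p = 0.327). The partner TER94 fell (-0.64). Early zygotic RNA moved with this contrast: the list summed to 391 and 424 CPM in control females and 1195 and 2091 CPM in mof females. The maternal egg list overlapped, at 1199 and 1469 CPM in control and 1580 and 1386 CPM in mof females. The part of these lists in this result and in the sex difference that follows was not tested. The mof effect differed between the St5 sexes for 0 of 36 genes by edgeR, with 0.121% of all genes passing, 5 of the 36 at an unadjusted p under 0.05 and 2 by DESeq2. The smallest p-values, and the 2 calls of DESeq2, were those of Rpt6 (1.38 ± 0.38, adjusted p = 0.164) and Rpt3R (-1.82 ± 0.59, adjusted p = 0.220).

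Of the 16 paralogs, 3 were at more than a trace in some group: Rpt3R (chromosome 3R, 9754735 to 9756510, minus strand) and Rpt6R (chromosome 3R, 30582198 to 30583697, minus strand), relatives of the ATPase genes Rpt3 and Rpt6, and Prosbeta2R2 (chromosome 3R, 5217751 to 5219528, minus strand), a relative of Prosbeta2, whose product has the trypsin-like cutting site. All 3 fell at St7 after mof depletion in both sexes, where 15.3% of all genes fell in males and 16.8% in females. Only these 3 of the 16 paralogs were tested at St7. Rpt6R and Prosbeta2R2 were near the floor in mof females, so the low count filter may have kept them through the control embryos. A paralog this low could be tested only if it was higher in controls, so the count of 3 says nothing about paralogs as a set. Rpt3R had a lowest of 17.8, a median of 21.2 and a highest of 33.8 CPM in control males and a lowest of 1.80, a median of 4.04 and a highest of 10.2 CPM in mof males, a log2 fold change of -2.20 ± 0.31 (SE, adjusted p = 5.98e-05, edgeR). In females Rpt3R had a lowest of 5.60, a median of 12.7 and a highest of 17.3 CPM in the 6 controls and was 1.67, 1.83, 1.23 and 2.57 CPM in the 4 mof embryos, a log2 fold change of -2.60 ± 0.40 (adjusted p = 9.94e-05). In neither sex did a mof embryo overlap a control embryo.

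Rpt6R had a lowest of 2.48, a median of 4.63 and a highest of 7.37 CPM in St7 control males and a lowest of 0.0998, a median of 0.360 and a highest of 1.998 CPM in mof males, a log2 fold change of -2.74 ± 0.44 (adjusted p = 0.000195, edgeR). In females Rpt6R was 2.06 to 4.64 CPM in controls and 0.238, 0.141, 0 and 0.429 CPM in mof embryos, a log2 fold change of -3.76 ± 0.63 (adjusted p = 0.000249). Prosbeta2R2 was 5.55 to 8.48 CPM in control and 0.299 to 3.27 CPM in mof males, a log2 fold change of -2.51 ± 0.38 (adjusted p = 0.000113), and 1.94 to 6.07 CPM in control and 0.286 to 0.476 CPM in mof females, a log2 fold change of -3.24 ± 0.52 (adjusted p = 0.000149). The groups of both genes were apart in both sexes. A list of 10 testis germline genes summed to 48.9 to 68.5 CPM in St7 control males, 16.4 to 57.4 in mof males, 27.8 to 52.2 in control females and 9.72 to 22.4 in mof females. Most of it was 1 gene, mia, at 55.6 ± 5.77 CPM in control males and 32.9 ± 15.4 CPM in mof males, and at 41.5 ± 8.42 and 15.95 ± 5.18 CPM in females. No other gene of the list exceeded 1.32 CPM in an St7 library, the level of nht, and Mst84Da was at 0 in all of them. The part of this list in the fall was not tested.

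The 3 paralogs had other levels in the other tables. In S2 cells Rpt6R was 96.98, 92.2 and 97.7 CPM with GFP dsRNA and 86.7, 101 and 105 CPM with mof dsRNA, while no embryo exceeded 7.37 CPM. Per length, Rpt6R stood at 66.2 ± 2.06 RPKM in the S2 controls, beside 63.1 ± 1.24 RPKM of Rpt6. Rpt3R was 6.49, 5.71 and 6.70 CPM with GFP dsRNA and 2.06, 1.96 and 2.02 CPM with mof dsRNA, a log2 fold change of -1.64 ± 0.12 (adjusted p = 1.38e-05, edgeR) with no overlap. Rpt6R (0.03, adjusted p = 0.798) and Prosbeta2R2 (-0.15, adjusted p = 0.801) did not pass in S2 cells. The mia level there was 32.7 ± 0.520 CPM with GFP dsRNA and 41.5 ± 0.385 CPM with mof dsRNA, so its means lay in the opposite order to those of Rpt3R.

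At St5 Rpt3R was 5.27, 5.20, 2.37 and 4.65 CPM in control males and 0.631, 0.752, 0.784 and 0.927 CPM in mof males (log2 fold change -2.24 ± 0.35, adjusted p = 0.00317, edgeR). It was 1.97 and 1.38 CPM in the control females and 1.42 and 1.04 CPM in the mof females, and in the controls it was higher in males (1.53 ± 0.44, adjusted p = 0.00970). Prosbeta2R2 was 1.34, 2.26, 0.572 and 1.16 CPM in control males and 0.120, 0.188, 0.0560 and 0.225 CPM in mof males (-2.89 ± 0.80, adjusted p = 0.0344). Its mof males were near the floor, so the low count filter may have kept it through the control males. For both genes every mof male lay below every control male. Over the alternatives tried the Rpt3R call in males held in 16. That of Prosbeta2R2 held in 7 and was lost in 9, among them the fit without the libraries labelled mof males 1 and 2. At St15 the highest library was 0.918 CPM for Rpt3R, 0.931 CPM for Rpt6R and 0.138 CPM for Prosbeta2R2, and of the 16 paralogs 2 were tested there and did not pass.

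**Figure D5:**
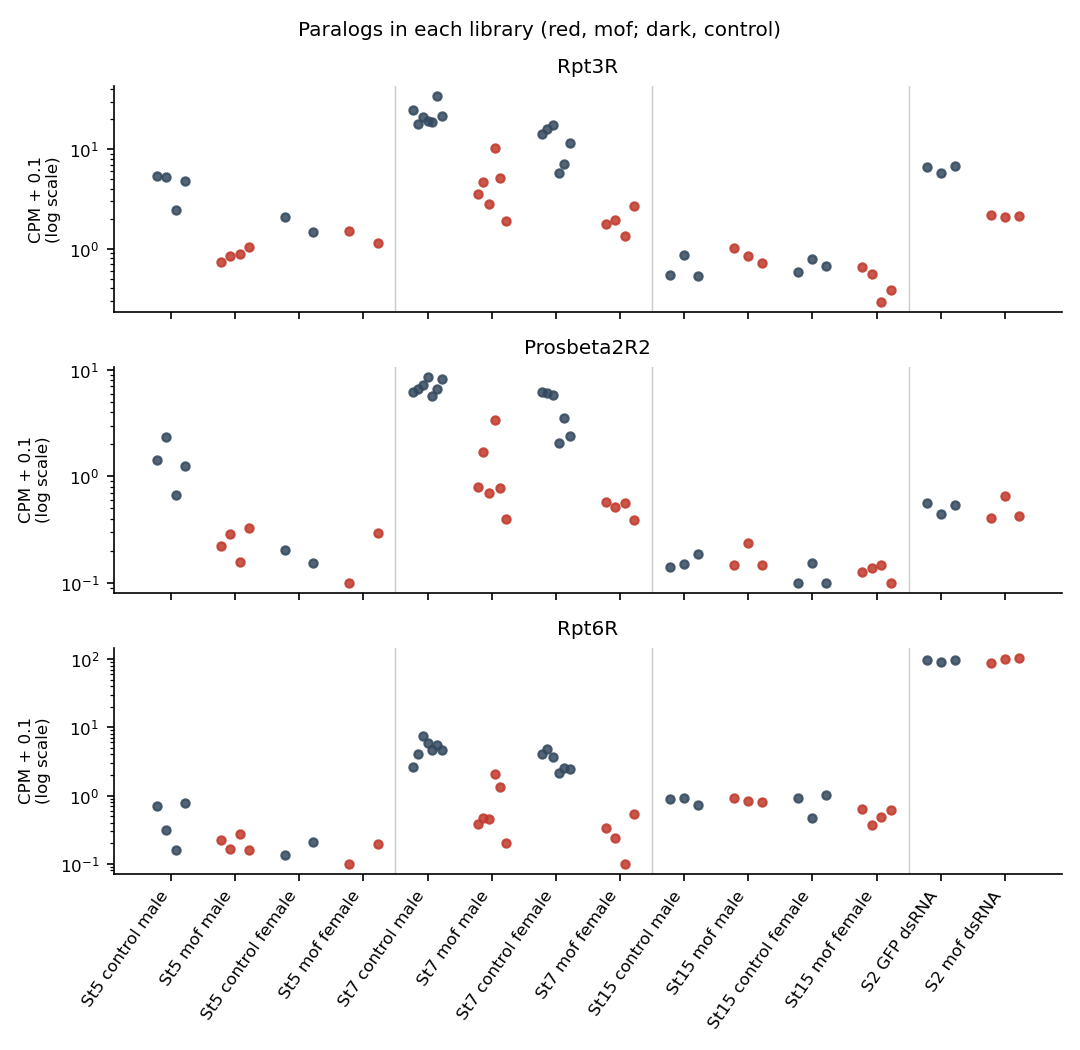
CPM plus 0.1 (log scale) of Rpt3R, Rpt6R and Prosbeta2R2, one panel each, in every library by group, control libraries dark and mof libraries red. At St7 the mof embryos of both sexes lie below the control embryos for all 3 genes, and Rpt6R stands between 86.7 and 105 CPM in the 6 S2 libraries.

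The other 13 paralogs were near or at 0. Prosalpha6T and Prosalpha1R had the highest single libraries, at 2.26 and 2.23 CPM, and no library exceeded 0.909 CPM in Rpn12R, 0.714 in Rpn13R, 0.466 in Prosbeta5R2, 0.463 in Prosalpha4T1, 0.405 in Prosalpha4T2 and 0.372 in Rpt4R. Prosbeta5R1, Prosbeta4R1, Prosbeta4R2, Prosalpha3T and Prosbeta2R1 reached at most 0.182, 0.135, 0.142, 0.129 and 0.117 CPM. The X paralogs Rpn13R and Prosbeta2R1 are among these, so the X members with usable levels are the 4 constitutive genes.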

How the data were processed

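The values are gene counts as deposited by the authors, 1 column per library in 4 tables, from polyA-selected stranded libraries per the labels' protocols, with dm6 named in the submitters' processing notes. Of the aligner, the counter and its use of strand, the sources used here give nothing. Genes of the St5 table were matched to the annotation by symbol (12887), synonym (839) or locus tag (3604), with 112 ambiguous and 116 unmatched, and those of the other tables by gene ID (17252, with 306 unmatched). Each table was fitted on its own with edgeR 4.0.16 in R 4.3.3 (TMM scaling, filterByExpr, robust quasi-likelihood fit, group means), and p-values were adjusted by Benjamini-Hochberg over the 9103, 8717, 10684 and 9676 genes tested at St5, St7, St15 and in S2 cells. An adjusted p under 0.05 passed. CPM uses each library's total count without TMM, and RPKM uses the exon length of each gene.

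Named genes were the members that passed, at most 8 per direction by size or the 2 with the smallest p where none passed, up to 3 partner genes, and the X members and expressed paralogs. Alternatives were DESeq2 1.42.0, RLE scaling, TMM on autosomal genes, a replicate block, no filter on low counts, a filter at 10 CPM, no robust option, only the groups compared, each library left out, and St5 without mof males 1 and 2. The fits were tested on simulated data. The members, lists and tests were chosen with earlier results of these data known.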

Additional observations from a re-analysis of the deposited data

Results flagged for a closer look

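The effect of mof depletion at St15 differed between males and females for 19 proteasome genes by edgeR's interaction test with Benjamini-Hochberg adjustment. Of these, the values below 0, meaning a lower fold change in males, were those of the X genes Rpt3 (-0.77 on the log2 scale), Rpt6 (-0.58), Prosalpha4 (-0.42) and Rpt4 (-0.41). Above 0 in the core were Prosbeta5 (0.43), Prosalpha3 (0.41), Prosbeta4 (0.40), Prosbeta1 (0.39), Prosbeta6 (0.32), Prosalpha7 (0.30) and Prosalpha6 (0.27). Above 0 in the cap were Rpn2 (0.47), Rpn1 (0.35), Rpn13 (0.33), Rpn8 (0.29), Rpn6 (0.27), Rpn12 (0.27), Rpn7 (0.26) and Rpt5 (0.26).

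In 5 cases 1 library lay far from the others of its group by Dixon's criterion, out of 56 groups of values examined, and chance alone gives about 1 in 20. St5 control male 3 had the lowest Rpt1, at 73.7 CPM, and the lowest Rpt6, at 38.6 CPM. St5 mof male 1, whose sex label its Y-linked and Sxl counts go against, had the highest Rpt6, at 184 CPM. St7 control male 6 had the highest Rpt3R, at 33.8 CPM. In St7 mof male 6 the mean log2 RPKM of X genes less that of autosomal genes was 0.0402, apart from the other 5 mof males of that stage.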

How the results depend on the processing

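Counts of proteasome genes that passed moved by more than 1.5 times in these settings. At St5 the male count of 7 was 2 at 10 CPM or more, 4 with only the groups compared and 1 without mof males 1 and 2. The St5 female count of 0 was 3 with only the groups compared, and the St5 sex difference of 0 was 2 by DESeq2. At St7 the male count of 4 was 2 at 10 CPM or more, the female count of 3 was 5 by DESeq2, RLE scaling, TMM on autosomal genes or only the groups compared, and the control sex count of 1 was 2 by DESeq2 or only the groups compared. At St15 the female count of 1 was 2 without a low count filter or with only the groups compared. The St15 sex difference of 19 was 11 with the replicate block (7 above 0 and 4 below), and the block moved no other count by as much. Same-numbered libraries were not treated as paired in the main fits. Their deviations correlated above 0.1 in 3 of 14 pairs at St5, 8 of 30 at St7, 3 of 16 at St15 and 2 of 3 in S2 cells. So few pairs cannot settle whether the libraries were paired. The causes of these moves were not tested.

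With 1 library left out at a time the St5 counts ran from 3 to 12 in males, 0 to 0 in females, 15 to 26 between control sexes and 0 to 1 for the sex difference. At St7 they ran from 3 to 5, 3 to 8, 1 to 2 and 0 to 0 in the same order. At St15 they ran from 22 to 26, 0 to 2, 0 to 0 and 12 to 24, and in S2 cells from 7 to 15 against 18 with all libraries. Of the named genes' values under the alternatives, 1108 kept direction and side of the threshold, 85 lost the call, 4 gained it and none reversed. With TMM on autosomal genes the autosomal genes that rose numbered 18 in St15 males and 11 in S2 cells. The St7 libraries were the shallowest; the effect of depth on the calls was not tested.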

Other observations

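Within the St7 groups of at least 6 single embryos, the log2 core-to-cap ratio was compared with the summed CPM of early zygotic genes (log2) and of maternal egg RNAs (log2), 6 relations in all. For early zygotic RNA, Pearson's r was -0.96 in the 6 control females (exact permutation p = 0.0306, two-sided, 0.0917 after Benjamini-Hochberg adjustment) and Spearman's rho -0.89 (exact permutation p = 0.0333, adjusted 0.2). In the 7 control males r was -0.87 (exact permutation p = 0.0111, adjusted 0.0667) and rho -0.68 (exact permutation p = 0.110, adjusted 0.219). In the 6 mof males r was -0.72 (exact permutation p = 0.131, adjusted 0.261) and rho -0.77 (exact permutation p = 0.103, adjusted 0.219).

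Without the 2 embryos farthest from the median on the x axis, r was -0.93 in control females, -0.50 in control males and -0.37 in mof males. For maternal egg RNA, r was 0.59 in control females (exact permutation p = 0.278, adjusted 0.417), 0.15 in control males (exact permutation p = 0.621, adjusted 0.621) and -0.40 in mof males (exact permutation p = 0.425, adjusted 0.510), with rho of 0.31, -0.07 and -0.43. None of the 6 relations passed after adjustment, and the totals of both lists share their library with the ratio.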
